A study of Mus musculus with 6 samples.

Results

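The 38 genes described here encode the enzymes of glycolysis and gluconeogenesis, the glucose transporters Slc2a1 and Slc2a3 that feed them, and the kinases and dehydrogenase subunits that decide whether pyruvate enters the mitochondrion. They were taken by gene name from the non-control probes of the arrays, which gave 55 probes and 73 spots for these genes among 31791 gene names, 39429 probes and 43020 spots in all. The cells were LSK-SLAM cells, bone marrow cells sorted as Lin- c-Kit+ Sca-1+ CD150+ CD48-, a gate that enriches hematopoietic stem cells (HSCs). They came from secondary recipients (2T) in a serial competitive transplantation. Fetal liver cells that were p190-B-/- or came from WT littermates (CD45.2+, C57BL/6J background) were first given with CD45.1+ competitor marrow to lethally irradiated congenic mice, and marrow of those mice then went into a second set of irradiated hosts. Both groups therefore share donor stage, competitor cells, irradiation and 2 transplantations, and differ in the donor allele of p190-B, a GTPase-activating protein encoded by Arhgap5, missing from the whole embryo and not from blood cells alone. RNA was amplified as cDNA, labelled with Cy3 and hybridised to 6 single-colour arrays, 3 labelled 2T-WT and 3 labelled 2T-p190-B-/-. The labels name no CD45 marker for the sort, and whether host or competitor cells were gated out is not stated there. Whether 1 mouse or a pool stands behind an array is not in the labels. A figure legend of the paper speaks of 3 separate secondary recipients per group, taken on 3 occasions. The p-values below set group differences against the spread between arrays within groups.

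Glycolysis splits glucose into pyruvate with a net gain of ATP and NADH and needs no oxygen, and gluconeogenesis runs the path backwards with its own enzymes at the irreversible steps. HSCs in the marrow are known for relying on glycolysis and for keeping pyruvate out of the mitochondrion through pyruvate dehydrogenase kinases, a programme tied to the hypoxia-inducible factors. Gluconeogenesis proper belongs to liver and kidney.

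Values below are log2 of the background-corrected signal minus log2 of the same array's 75th percentile, so 0 is the signal at that percentile, and values of different probes are not comparable as amounts of RNA. Before this scaling the arrays of 2T-p190-B-/- were the brighter ones without overlap, with 75th percentiles of 252 to 385 against 53.9 to 227 intensity units in 2T-WT. A probe counts as detected on an array where the scanner software marked it well above background, which held for 47.8 to 72.7% of spots. The arrays lie on 3 slides, and slide 2 holds 2 arrays of each group. The lone Arhgap5 probe was well above background on 1 array, labelled 2T-p190-B-/- replicate 2, so it cannot check the genotype labels. Of the sorting markers, Slamf1, which encodes CD150, and Procr were detected on 0 arrays, while Kit was detected on 2 of 3 2T-WT and all 3 2T-p190-B-/- arrays and Ly6a, which encodes Sca-1, on all 6. Cd48, the marker the sort selects against, was detected on all 6. In bulk samples, fewer cells of a type and less RNA per cell cannot be told apart.

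What an array reports for a gene depends on the 60-base probe that reads it, and 5 of these genes had more than 1 probe that passed the filter. Their probes are shown because the results for these genes differ from probe to probe. For Gapdh, which oxidises glyceraldehyde 3-phosphate, probes a to f are ordered by annotated position, 5′ to 3′ on chromosome 6 (mm9, minus strand). Probe g has coordinates on chromosome 8. The probes with a reading frame free of stop codons are as follows, at chr6:125113312-125113371 for probe a, chr6:125113229-125113288 for b, chr6:125112979-125113038 for c and chr8:94212520-94212579 for g. For probe f the annotated interval, chr6:125111848-125111866, covers 19 of its 60 bases. Its place in this order is therefore uncertain, and unlike probes d and e it has a reading frame free of stop codons.
Gapdh probe a: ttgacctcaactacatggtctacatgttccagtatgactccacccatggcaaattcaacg
Gapdh probe b: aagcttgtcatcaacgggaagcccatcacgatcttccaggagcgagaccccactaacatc
Gapdh probe c: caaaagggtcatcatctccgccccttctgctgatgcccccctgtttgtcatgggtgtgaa
Gapdh probe f: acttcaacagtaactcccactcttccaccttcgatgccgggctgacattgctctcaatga
Gapdh probe g: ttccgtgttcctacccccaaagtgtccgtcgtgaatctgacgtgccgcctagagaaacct

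Probes d (chr6:125111878-125111937) and e (chr6:125111869-125111928) overlap at the 3′ end of the gene and differ at 5 of 51 shared positions. A 30-base stretch of both, chr6:125111899-125111928 on the minus strand, is given with the differing bases in capitals.
Gapdh probe d: gGgcctagggagccctCcctaTtctTttga
Gapdh probe e: gAgcctagggagccctAcctaCtctCttga

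Gpi1, the isomerase that turns glucose 6-phosphate into fructose 6-phosphate, has 3 probes that overlap almost whole near chr7:34987173-34987237 (minus strand). They differ from each other at 1 to 3 of the 55 to 59 positions they share, and the capitals mark those that fall in the stretch chr7:34987203-34987232.
Gpi1 probe a: tgttgttCtgacctGtatttcacaccccag
Gpi1 probe b: tgttgttCtgacctTtatttcacaccccag
Gpi1 probe c: tgttgttTtgacctGtatttcacaccccag

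Tpi1, triosephosphate isomerase, is read at chr6:124761923-124761982 by probe a and at chr6:124760947-124761006 by probe b, both on the minus strand. Ldha, the lactate dehydrogenase subunit that favours lactate, is read at chr7:54103010-54103069 by probe a and at chr7:54107294-54107353 by probe b on the plus strand, with probe c further 3′ at chr7:54110937-54110996.
Tpi1 probe a: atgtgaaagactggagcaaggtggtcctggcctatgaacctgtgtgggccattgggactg
Tpi1 probe b: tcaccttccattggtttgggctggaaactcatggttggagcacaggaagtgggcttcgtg
Ldha probe a: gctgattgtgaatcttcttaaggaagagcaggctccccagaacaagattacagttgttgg
Ldha probe b: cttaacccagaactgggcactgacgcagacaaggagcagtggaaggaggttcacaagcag

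Of the 38 genes, 25 had a probe detected on at least 3 of the 6 arrays and entered the test, and the other 13 are described where their step is. Where several probes of a gene passed, the brightest in the mean over the 6 arrays stands for the gene. Relative to 2T-WT, 9 of the 25 genes were higher and 16 lower in 2T-p190-B-/-, so that 36% had a difference above 0, against 38.5% of the 21705 genes tested. The median log2 difference was −0.08 and the mean −0.02, against a median of −0.35 over all genes tested, and 17 of the 25 lay above that general median. With quantile normalization the general median was −0.11 and the split 12 higher and 13 lower, with 14 genes above the general median. With the processed values as deposited the split was 13 higher and 12 lower. By limma with Benjamini-Hochberg adjustment 0 of the 25 passed 0.05, and the smallest adjusted p was 0.637. At an unadjusted limma p under 0.05 there were 2, Pgk1 and Pgam1, beside 6.37% of all genes. The methods' t-test at 0.05 with at least a 2-fold difference took 3, beside 6.4% of all genes. These were Pgk1 and Eno1, lower in 2T-p190-B-/- (background 4.21%), and Pgam1, higher (background 2.19%). The Pgam1 probe entered the test only through 2T-p190-B-/-, since it was detected on 0 arrays of 2T-WT, so its place in both counts rests on 2T-WT values at background. By size alone, 4 genes were at least 2-fold higher and 5 at least 2-fold lower, beside 15.3% and 28.2% of all genes. The 4 higher ones, Hk1, Pgam1, Pgam2 and Fbp1, were each undetected on at least 1 array of 2T-WT.

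The ranges of both genotypes were separate for 7 of the 25 genes, or 28%, against 16.1% of all genes tested. Of these, Hk1, Pgam1 and Fbp1 were higher in 2T-p190-B-/-, where the background is 4.36%, and Pgk1, Eno1, Fbp2 and Pck1 were lower, where it is 11.8%. The 3 higher genes were detected on 2, 0 and 1 of the 3 2T-WT arrays in that order. Among the 18 genes whose probe was detected on all 6 arrays, 0 were higher and 3 lower without overlap. After normexp, a background correction that models the local background in place of the software's subtraction, 0 of the 25 were higher and 5 lower. No share over all genes is given for these settings, so the counts are description only. The general median there was −0.46 and −0.44 in that order. With 3 arrays against 3, an exact permutation test of a single gene cannot give a two-sided p below 0.1. Without the 2T-p190-B-/- array of replicate 2, 0 genes passed the methods' threshold, and without each of the other arrays in turn 1 to 4 did.

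**Figure D1:**
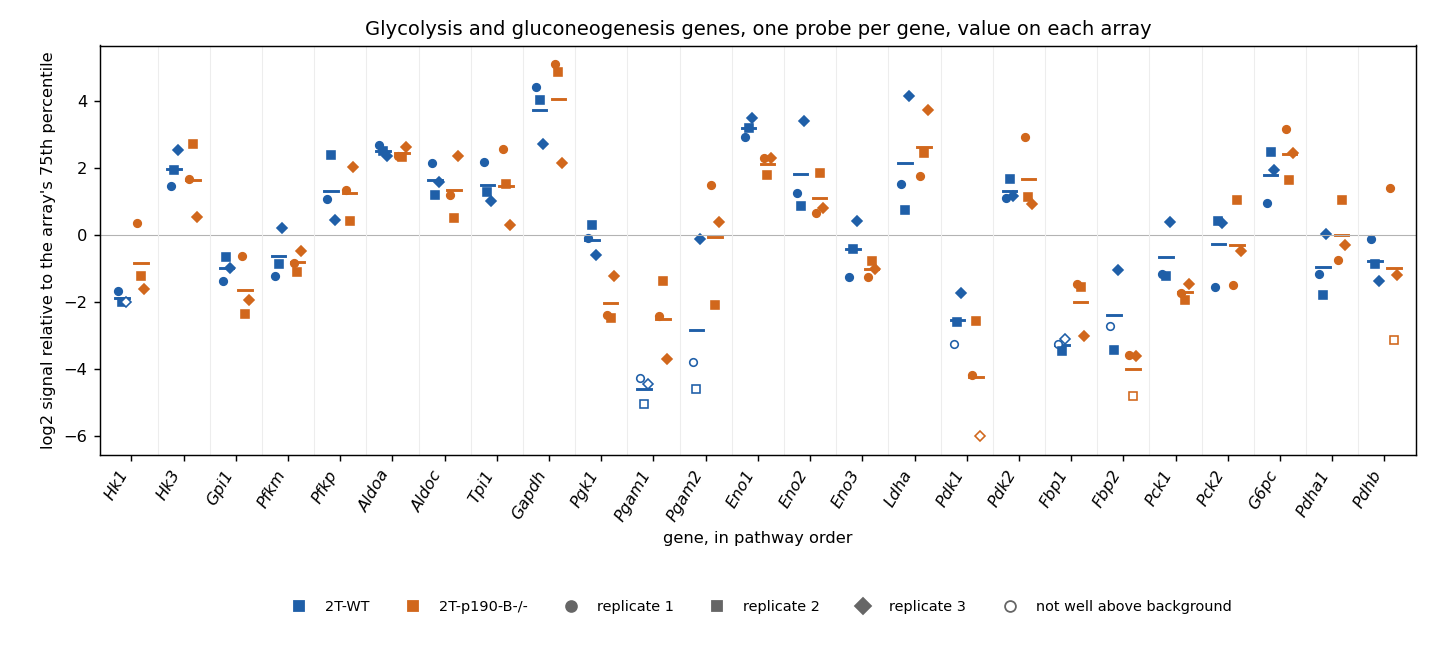
Scaled log2 signal (y axis, relative to the array's 75th percentile) of the 25 genes tested, in pathway order on the x axis, with 1 point per array, a bar at each group's mean and open symbols where the probe was not well above background. Aldoa spans 2.33 to 2.69 over all 6 arrays, while Pgam2 spans −4.60 to 1.51.

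**Figure D2:**
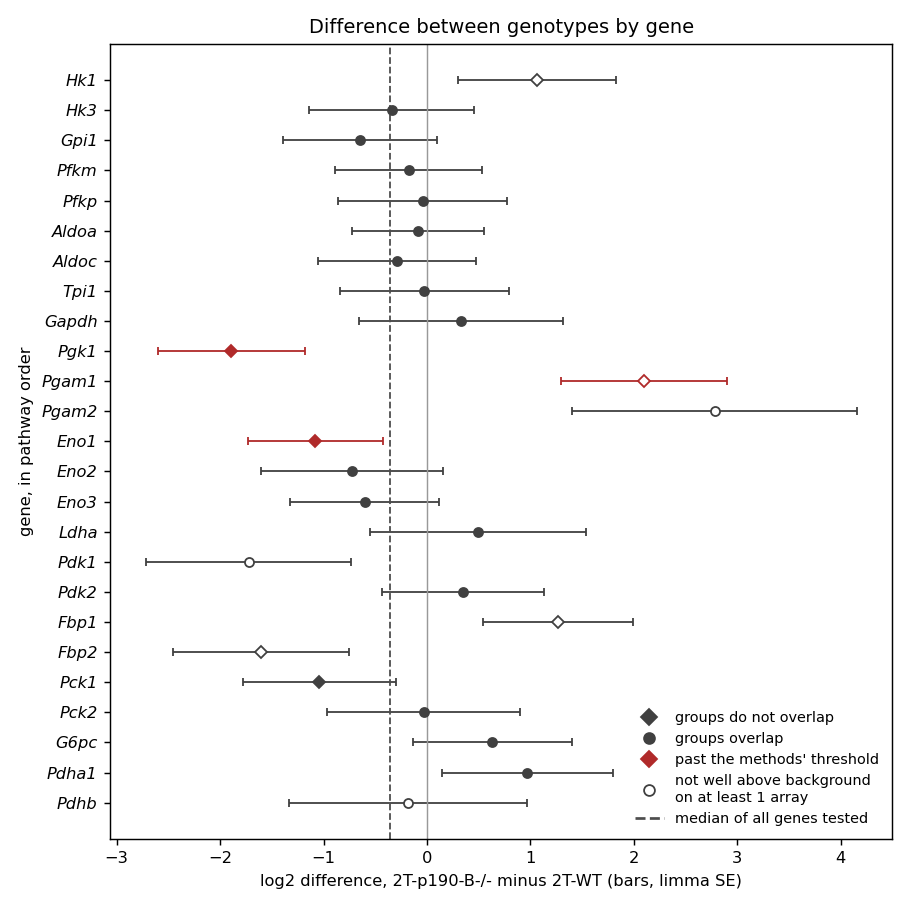
Log2 difference between the genotypes (x axis, 2T-p190-B-/- minus 2T-WT, bars are limma's SE) for the same 25 genes. Pgk1 at −1.89, Eno1 at −1.08 and Pgam1, whose 2T-WT values are at background, passed the methods' threshold, whose cutoffs were set here. Diamonds mark groups that do not overlap. Open symbols mark probes not well above background on at least 1 array, and the dashed line is the median of all genes tested at −0.35.

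At the entry of the pathway, the glucose transporters were at the limit of detection. The Slc2a1 probe, for the ubiquitous transporter GLUT1, was detected on 1 array of each group, and that of Slc2a3, for GLUT3, on 0 arrays. Hexokinases trap glucose as glucose 6-phosphate. Hk1, the widely expressed form, measured −1.67, −2.01 and −1.98 in replicates 1 to 3 of 2T-WT, and 0.36, −1.21 and −1.62 in those of 2T-p190-B-/-, the order used from here on. The groups did not overlap, but the gap between them was 0.05 and replicate 1 of 2T-p190-B-/- stood apart. The log2 difference was 1.06 (SE 0.76), or 2.09-fold, with an adjusted p of 0.657 by limma. Without that replicate it was 0.47, and it was 0.03 after normexp background correction. A second Hk1 probe and the Hk2 probe were detected on 0 arrays. Hk3, the form of myeloid cells, overlapped between groups with a log2 difference of −0.34 (SE 0.80).

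For the isomerase, phosphofructokinase, aldolase and triosephosphate isomerase genes that were tested, the groups overlapped on the representative probe. Gpi1 measured −1.36, −0.65 and −0.97 in 2T-WT and −0.62, −2.37 and −1.93 in 2T-p190-B-/- on probe c, a log2 difference of −0.64 (SE 0.74). Probe a gave −1.40, −0.60 and −1.47 against −0.43, −2.55 and −1.81, a difference of −0.44. Probe b gave −2.09, −1.41 and −2.20 against −0.42, −2.65 and −2.50, a difference of 0.04. All 3 probes put replicate 1 of 2T-p190-B-/- highest of the 6 arrays and replicate 2 lowest, although the sign of the mean difference did not hold.

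Phosphofructokinase makes the committed step. Pfkm, the muscle-type subunit, and Pfkp, the platelet-type subunit, had log2 differences of −0.18 (SE 0.71) and −0.04 (SE 0.82), and Pfkl was detected on 1 array of each group. Pfkm is printed as 10 spots on each array, as is Pck2. For these the median SD among the spots of an array was 0.14 and 0.11, while the SD between arrays of a group was 0.57 and 1.20. Over 399 probes printed in this way the medians were 0.16 and 1.00, so that arrays of the same genotype differed far more than spots of the same array.

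Aldolase splits fructose 1,6-bisphosphate. Aldoa, the main form in muscle and blood, measured 2.69, 2.51 and 2.38 in 2T-WT and 2.38, 2.33 and 2.62 in 2T-p190-B-/-. No other member varied so little on its representative probe, and the difference of −0.08 (SE 0.64) takes its SE from limma's pooling of the spread over all probes. Aldoc, the brain-type form, had a difference of −0.29 (SE 0.76). The sign for Aldoa is positive with quantile normalization at 0.11, with the deposited processed values at 0.04 and after normexp at 0.56.

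Tpi1, which balances both triose phosphates, gave different pictures on its pair of probes. On probe a it measured 2.18, 1.28 and 1.03 in 2T-WT and 2.57, 1.53 and 0.31 in 2T-p190-B-/-, a difference of −0.02 (SE 0.82). On probe b it measured −1.60, 2.38 and −0.65 against 2.42, 0.49 and 2.29, a difference of 1.69 (SE 1.14). Probe a put 2T-WT replicate 1 highest of its group and probe b put it lowest, and the groups overlapped on both.

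Gapdh, often used as a reference gene, was measured by 7 probes, all of which passed the filter and all of which had a positive log2 difference, from 0.21 on probe b to 3.28 on probe a. Probe g has coordinates on another chromosome, so which transcript it reads is uncertain, and probes d and e overlap in sequence. The groups overlapped on each of the 7. Probe c, the brightest, measured 4.44, 4.03 and 2.71 in 2T-WT and 5.11, 4.89 and 2.17 in 2T-p190-B-/-, a difference of 0.33 (SE 0.99) and an adjusted p of 0.923 by limma. Without 2T-WT replicate 3 it was −0.18, and without replicate 1 or 2 of 2T-p190-B-/- it was −0.20 and −0.09. Leaving out 2T-WT replicate 3 turns the sign on probes b, d and e as well.

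The 2T-WT arrays did not keep their order from probe to probe. Probe a, the most 5′, measured 0.23, 5.11 and −4.45 in 2T-WT and 5.15, 4.28 and 1.30 in 2T-p190-B-/-. Probe b, just downstream, measured 4.11, 4.84 and −0.51 against 5.73, 4.24 and −0.90. Probe d measured 4.26, 0.35 and −4.40 against 1.76, 0.65 and 1.18. On probes d and e, at the 3′ end, replicate 1 was the highest 2T-WT array, while on probes f and g it stood at −0.29 and −0.77 and replicate 2 at 4.84 and 5.02. Replicate 3 was the lowest 2T-WT array on probes a to f. On probes a, d and e it was not well above background. The range over the 3 arrays was 1.72 to 9.56 in 2T-WT and 0.36 to 6.63 in 2T-p190-B-/-, and it was the wider in 2T-WT on every probe but b and c. Replicate 3 of 2T-WT was also the dimmest array before scaling, at a 75th percentile of 53.9 units, whose part in this spread was not tested.

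**Figure D3:**
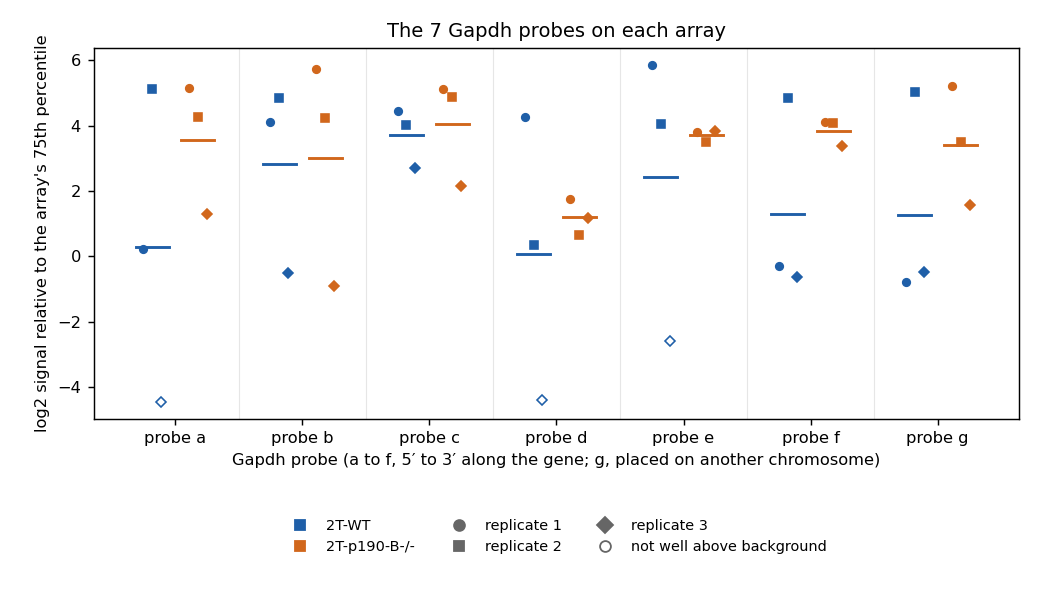
Scaled log2 signal of the 7 Gapdh probes (x axis) on each array (y axis, relative to the array's 75th percentile), with bars at group means and open symbols where the probe was not well above background. Probes a to f are in the order of their annotated positions, and the place of f is uncertain. Replicate 3 of 2T-WT lies lowest of its group on probes a to f, down to −4.45, while the order of the other arrays changes between probes, so arrays should be compared within a probe only.

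Phosphoglycerate kinase makes the first ATP of the pathway. Its gene Pgk1 measured −0.09, 0.30 and −0.60 in 2T-WT and −2.37, −2.47 and −1.22 in 2T-p190-B-/-, and the groups were 0.62 apart on the log2 scale. The log2 difference was −1.89 (SE 0.71), or 3.71-fold lower, with an unadjusted limma p of 0.029 and an adjusted p of 0.637. Over the 15 alternatives run the difference was −2.29 to −1.43, and it was −2.27 among the 4 arrays of slide 2. With separate groups, leaving out an array or blocking could not turn the sign, and several alternatives leave this probe's values unchanged. The file places this probe at chr3:57906830-57906894, an interval of 65 bases for 60, while RefSeq has Pgk1 on chromosome X, so which transcript it reads is uncertain.

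Phosphoglycerate mutase moves the phosphate before the enolase step. Pgam1, the ubiquitous form, measured −4.27, −5.03 and −4.46 in 2T-WT and −2.43, −1.36 and −3.69 in 2T-p190-B-/-. The probe (chr19:41992898-41992957, plus strand) was well above background on all 3 arrays of 2T-p190-B-/- and on 0 of 2T-WT. Its 2T-WT level therefore has only an upper bound. Under the main scaling the mean signal was at least 1.41-fold higher in 2T-p190-B-/-. This bound sets the mean of the bright group against the lowest signals that counted as detected on the dim arrays, or the probe's own where higher. It holds for means only. At −3.69, replicate 3 of 2T-p190-B-/- lay below the lowest detected signals on 2T-WT replicates 1 and 3 (−2.69 and −2.26). Limma's adjusted p was 0.637, from 2T-WT values at background. The difference was negative after normexp background correction, at −0.46, and the brightness of the arrays before scaling moved with it, whose part was not tested.

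Pgam2, the muscle form of the mutase, measured −3.80, −4.60 and −0.12 in 2T-WT and 1.51, −2.08 and 0.39 in 2T-p190-B-/-. Its groups overlapped through 2T-WT replicate 3, the lone 2T-WT array on which it was detected. The other 2 arrays of 2T-WT were at background, so their values are upper bounds, and limma's adjusted p was 0.637.

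Enolase makes phosphoenolpyruvate. Eno1, the form of most cells, measured 2.94, 3.19 and 3.50 in 2T-WT and 2.30, 1.80 and 2.31 in 2T-p190-B-/-, with a gap of 0.64 between groups and a probe detected on all 6 arrays (chr4:149622928-149622987, plus strand). The log2 difference was −1.08 (SE 0.65), or 2.11-fold lower. The spread within groups was small (SD 0.28 and 0.29, n = 3 each), and limma's adjusted p was 0.637. Over the alternatives the difference ran from −1.30 to −0.30. With separate groups, leaving out an array or blocking could not turn its sign. Eno2 and Eno3, the neuronal and muscle forms, were also lower in the mean, at −0.73 (SE 0.88) and −0.60 (SE 0.72), with overlapping groups.

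Pklr, a pyruvate kinase of liver and red cells, was detected on 1 array of each group. Ldha measured 1.54, 0.76 and 4.17 in 2T-WT and 1.76, 2.46 and 3.74 in 2T-p190-B-/- on probe b, a difference of 0.50 (SE 1.04). On probe a it measured 1.98, 1.18 and 2.39 against −0.45, −0.61 and 2.13, a difference of −1.49 (SE 0.92). On probe c it measured 6.23, −0.42 and −1.73 against 3.64, 0.12 and −0.23, a difference of −0.19 (SE 2.04). Probes a and b put 2T-WT replicate 3 highest of its group and probe c put it lowest, and the mean over the 3 probes was −0.39, so the sign for Ldha depended on the probe. Ldhb, the subunit that favours pyruvate, was detected on 1 array of each group.

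**Figure D4:**
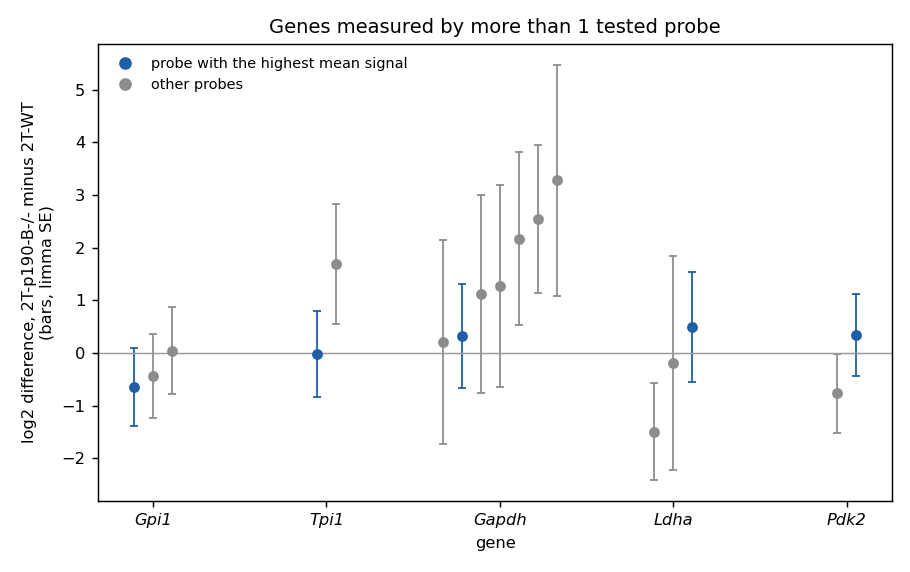
Log2 difference between the genotypes (y axis, 2T-p190-B-/- minus 2T-WT, bars are limma's SE) for each tested probe of the 5 genes with more than 1 (x axis). Gapdh lies above 0 on all 7 probes, from 0.21 to 3.28, among them probe g with coordinates on another chromosome. On probes b to e this sign rests on 2T-WT replicate 3, the dimmest array before scaling. The probes of Gpi1, Tpi1, Ldha and Pdk2 fall on both sides of 0.

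Pyruvate dehydrogenase kinases switch off the entry of pyruvate into the mitochondrion. Pdk1 measured −3.24, −2.59 and −1.73 in 2T-WT and −4.17, −2.55 and −6.01 in 2T-p190-B-/-, with detection on 2 arrays of each group. The groups overlapped through replicate 2 of 2T-p190-B-/-, and the difference of −1.72 (SE 0.99) had an adjusted p of 0.637 by limma. Replicate 3 of 2T-p190-B-/-, at −6.01, was at background, and without it the difference was −0.84. Pdk2 measured 1.10, 1.67 and 1.18 in 2T-WT and 2.93, 1.14 and 0.94 in 2T-p190-B-/- on its brighter probe, a difference of 0.35 (SE 0.78). Its other probe measured 0.94, −0.39 and 0.60 against −0.56, 0.37 and −0.96, a difference of −0.77 (SE 0.74). Replicate 1 of 2T-p190-B-/- was the highest of its group on the first probe, and replicate 2 on the other. The Pdk3 probe was detected on 0 arrays and that of Pdk4 on 1 array of each group. The enzyme these kinases act on is encoded by Pdha1 and Pdhb, which had differences of 0.97 (SE 0.83) and −0.19 (SE 1.15) with overlapping groups.

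The bifunctional enzymes Pfkfb1 to Pfkfb4 set fructose 2,6-bisphosphate, the activator of phosphofructokinase, and 0 of the 4 genes entered the test. Pfkfb2 was detected on 0 arrays. For Pfkfb4, 1 probe stood at 5.66 on 2T-WT replicate 1 and between −6.78 and −1.40 on the others. For Pfkfb3, 1 probe stood at 0.37 on 2T-p190-B-/- replicate 1 and at −4.34 or below on the others. Each of these high values rests on 1 array. Pfkfb1 was detected on 1 2T-WT array, at −2.20, and on 0 of 2T-p190-B-/-.

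Of the 6 genes of gluconeogenesis, 5 were tested, and Pcx, the pyruvate carboxylase, was detected on 2 arrays of 2T-p190-B-/- and 0 of 2T-WT. Fructose 1,6-bisphosphatase reverses phosphofructokinase, and its genes Fbp1 and Fbp2 differed in opposite directions. Fbp1, the liver form, measured −3.25, −3.45 and −3.11 in 2T-WT and −1.45, −1.55 and −3.01 in 2T-p190-B-/-. The difference was 1.27 (SE 0.73), and although the groups did not overlap, the gap between them was 0.10. The probe was detected on 1 2T-WT array and on all 3 of 2T-p190-B-/-, and normexp background correction turned the difference to −0.38.

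Fbp2, the muscle form, measured −2.70, −3.43 and −1.05 in 2T-WT and −3.57, −4.82 and −3.60 in 2T-p190-B-/-. All 3 2T-p190-B-/- values lay below the 2T-WT values, with a difference of −1.60 (SE 0.85). Its probe spans an exon junction (chr13:62950852-62955367, minus strand) and was detected on 2 arrays of each group. Pck1, the cytosolic phosphoenolpyruvate carboxykinase, measured −1.16, −1.22 and 0.39 in 2T-WT and −1.72, −1.93 and −1.47 in 2T-p190-B-/-. Its groups too were separate, its probe was detected on all 6 arrays, and the difference was −1.04 (SE 0.74). Without 2T-WT replicate 3 it was −0.51. Pck2, the mitochondrial form, and G6pc, the catalytic subunit of glucose 6-phosphatase, had differences of −0.03 (SE 0.93) and 0.63 (SE 0.77) with overlapping groups. Adjusted p-values by limma were 0.637 for Fbp1 and Fbp2 and 0.654 for Pck1.

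Within slide 2, which holds replicates 2 and 3 of 2T-WT and 1 and 2 of 2T-p190-B-/-, the median log2 difference over the 25 genes was −0.36 beside −0.50 over all genes. Hk1 differed there by 1.57, Fbp1 by 1.78, Fbp2 by −1.95, Pck1 by −1.41 and Eno1 by −1.30. The groups of these genes do not overlap over all arrays, so their signs within the slide were fixed in advance. Ldha turned to −0.36, Tpi1 to 0.89 and Pdhb to 0.25. By array, the median of the 25 genes lay above the median of all genes by 0.52, 0.91 and 0.87 in 2T-WT and by 1.33, 1.08 and 0.30 in 2T-p190-B-/-, and these ranges overlapped.

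Many glycolytic genes are textbook targets of the hypoxia-inducible factors, whose core motif is ACGTG or GCGTG. The 250 bases upstream of the RefSeq starts (GRCm38.p6) were searched for each on both strands, as its letters or their reverse complement, and neighbouring matches may share bases. Of the 38 genes 37 matched, with 57 windows. ACGTG was in 33.3% of these windows and in 16.6% of all 32851 windows, and GCGTG was in 47.4% and 28.2%. A window of Pgam1, Eno1 and Pgk1, the genes past the methods' threshold, is shown with both motifs in capitals. Where a gene has several windows, the one with the most matches is shown. The Pgam1 window is chr19:41911621-41911870, that of Eno1, 1 of 3, is chr4:150236947-150237196 and that of Pgk1 is chrX:106186850-106187099, all on the plus strand.
Pgam1 upstream: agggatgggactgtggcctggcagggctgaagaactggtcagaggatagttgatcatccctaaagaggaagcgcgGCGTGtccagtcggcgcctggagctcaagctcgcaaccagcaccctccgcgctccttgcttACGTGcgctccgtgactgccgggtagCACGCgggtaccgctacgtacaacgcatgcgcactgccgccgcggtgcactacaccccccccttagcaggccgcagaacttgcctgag
Eno1 upstream: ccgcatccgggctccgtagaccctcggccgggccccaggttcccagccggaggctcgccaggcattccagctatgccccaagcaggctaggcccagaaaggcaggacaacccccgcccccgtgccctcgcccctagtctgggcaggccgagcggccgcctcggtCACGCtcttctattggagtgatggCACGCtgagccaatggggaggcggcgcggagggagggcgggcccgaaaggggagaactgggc
Pgk1 upstream: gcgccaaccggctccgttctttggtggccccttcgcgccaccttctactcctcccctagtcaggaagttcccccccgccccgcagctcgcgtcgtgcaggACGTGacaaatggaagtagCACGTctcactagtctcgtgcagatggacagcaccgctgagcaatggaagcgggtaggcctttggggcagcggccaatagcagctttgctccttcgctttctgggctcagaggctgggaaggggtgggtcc
In the windows shown, Pgam1 holds 1 ACGTG and 2 GCGTG matches, Eno1 0 and 2, and Pgk1 2 and 0. Of the oxygen-sensitive alpha subunits of these factors, named here after their values were seen, Hif1a was detected on 0 arrays. Epas1 and Hif3a were detected on all 6 on their brightest probes, with differences of −1.37 without overlap and −0.94 with overlap, and limma adjusted p-values of 0.637 and 0.704.

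The rest of sugar metabolism was read from 5 further lists, and in 4 of them the median difference lay below the general median. Of 18 other glycolytic isoenzymes and transporters tested, 7 were higher and 11 lower with a median of −0.34. The smallest limma p-values there belonged to Gpd1, the glycerol 3-phosphate dehydrogenase (−2.16), Slc2a6, a glucose transporter (2.02), and Hkdc1, a hexokinase homologue (−1.45). The 1 gene past the methods' threshold was Pgk2, the testis form of phosphoglycerate kinase, at 1.08, and it was named after its value was seen. It was detected on 1 array of 2T-WT and all 3 of 2T-p190-B-/-, so its difference is taken against 2 arrays at background.

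In the pentose phosphate pathway, which makes NADPH and ribose, 2 of 7 genes were higher and 5 lower, with a median of −0.99. Tktl1, a transketolase homologue, measured −2.82, −2.36 and −1.96 in 2T-WT and −3.86, −3.96 and −4.13 in 2T-p190-B-/-, a difference of −1.60 that passed the methods' threshold. The Tktl1 probe was detected on 2 arrays of 2T-WT and 1 of 2T-p190-B-/-, so its other values are at background. Taldo1 and Rpe differed by −2.02 and −1.22 with overlap. Of 8 genes of pyruvate and lactate transport and the rest of the pyruvate dehydrogenase complex, 2 were higher and 6 lower, with a median of −0.97. Pdp2, a phosphatase that reactivates pyruvate dehydrogenase, measured 0.64, −0.70 and 0.64 against −2.31, −1.41 and −2.43, a difference of −2.24 past the threshold, although its second probe gave 0.79. Slc16a7, a pyruvate and lactate carrier, was lower by the same threshold (−1.20), and Dlat, the E2 subunit, differed by −1.25.

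Of 12 citric acid cycle genes, 3 were higher and 9 lower, with a median of −0.75 and none past the methods' threshold, and those with the smallest limma p-values were Idh1 (−1.25), Aco1 (−1.18) and Mdh1 (−1.05). Of 13 regulators of glycolysis, 6 were higher and 7 lower, with a median of −0.74. Akt1, a kinase of insulin and cytokine signalling, and Egln3, a prolyl hydroxylase that marks hypoxia-inducible factors, were lower past the threshold at −1.51 and −1.39, and Egln1, another such hydroxylase, differed by 2.38 with overlap. Over the 5 lists 34.5% of 58 genes had a difference above 0, beside 38.5% of all genes. The methods' threshold took 6 of them, or 10.3%, beside 6.4% of all genes, with 1 higher and 5 lower, and the smallest adjusted p by limma was 0.637.

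**Figure D5:**
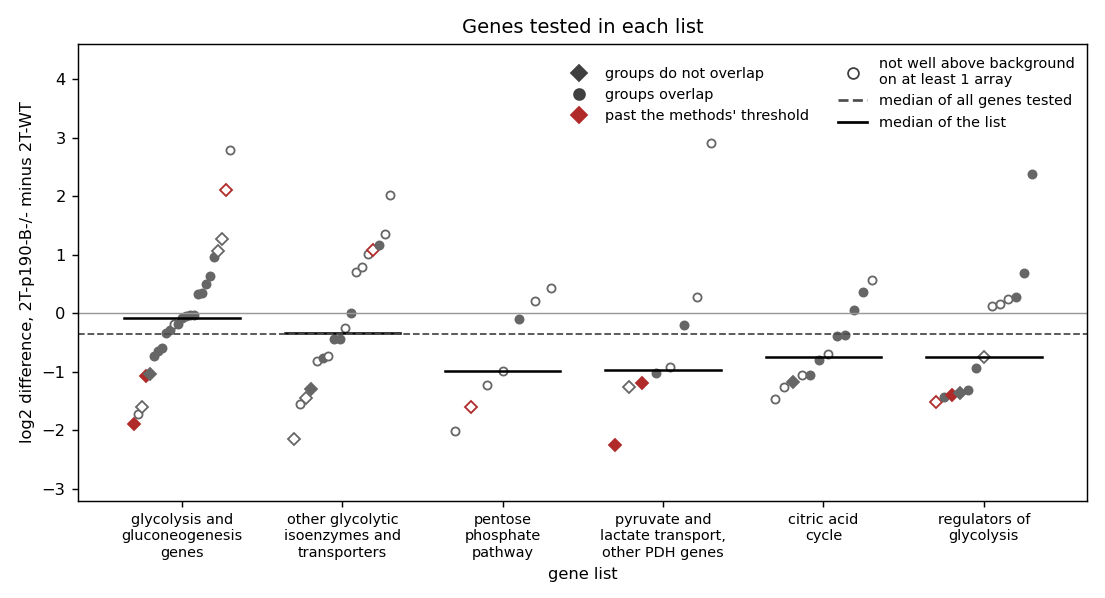
Log2 difference (y axis, 2T-p190-B-/- minus 2T-WT) of each tested gene in the 25 glycolysis and gluconeogenesis genes and the 5 further lists (x axis). Diamonds mark groups that do not overlap, and red the methods' threshold, whose cutoffs were set here. Open symbols mark probes not well above background on at least 1 array. A black bar marks each list's median and a dashed line the median of all genes, −0.35. The medians are −0.08 for the glycolysis and gluconeogenesis genes and between −0.99 and −0.34 for the other lists.

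Markers of other cells were measured on the same arrays, as sums of linear signal over each list in units of the array's 75th percentile. The red cell list, of which 5 of 12 genes were tested, summed to 325 to 986 in 2T-WT and 213 to 302 in 2T-p190-B-/- without overlap. Most of this was 1 probe of Ermap, which differed by −1.25, while the gene's other 2 probes overlapped between groups. The other 4 genes tested had positive differences, among them Slc4a1, the anion exchanger of red cells, at 1.53 past the methods' threshold and Hba-a1, a globin, at 0.85 with overlap. Hbb-b1, Epb4.2 and Tfrc were detected on 0 arrays. The B lymphocyte list (9 of 10 tested) summed to 6.58 to 727 in 2T-WT and 5.37 to 8.02 in 2T-p190-B-/-, where the high value was Cd79a at 9.47 (log2) on 2T-WT replicate 3. The T lymphocyte list (8 of 10) summed to 48.9 to 145 against 37.8 to 58.9. Most of this was 1 probe of Cd4, at −1.20 with overlap, while the gene's other probe differed by 1.67 without overlap. The neutrophil list (9 of 12) summed to 7.50 to 15.4 against 7.57 to 23.8, and the megakaryocyte list (5 of 10) to 15.0 to 29.3 against 12.9 to 52.0. The highest sum of both was 2T-p190-B-/- replicate 3, mostly from Mmp8 at 4.22 and Treml1 at 5.37 (log2). Lists of liver and kidney (4 of 8) and skeletal muscle (5 of 7), the home of Fbp1, Fbp2, Pck1, G6pc and Pgam2, summed to 1.51 to 9.54 against 3.73 to 8.64 and to 3.37 to 30.4 against 3.22 to 16.3, with Alb and Actn3 detected on 0 arrays. The part of other cells in the differences above was not tested.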

How the data were processed

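RNA of sorted LSK-SLAM cells was measured on 6 single-colour Agilent arrays, grouped by the sample titles. The authors deposited per spot an intensity from Agilent Feature Extraction 10.5.1.1 with background and spatial trend removed, not scaled between arrays, and a processed signal that equals it divided by 1 number per array. Coordinates are the files' (mm9). Control and outlier spots were left out (296 to 509 outlier spots per array, 0 saturated), values were log2 signal minus the array's 75th percentile, and repeated spots were averaged. Probes well above background on at least 3 arrays, 25160 in all, entered limma 3.58.1 (R 4.3.3) with genotype as the sole term and p-values adjusted over all of them by Benjamini-Hochberg. The Student's t-test named in the methods was run on the same values, with cutoffs set here (p of 0.05 or less, 2-fold minimum). Scripts were tested on simulated data. The number of arrays limits the precision. The rule for named genes gave each member, with values per array for those without overlap, past the threshold, 2-fold different or with probes of both signs, and of each further list the 3 genes with the smallest limma p. Members, lists and alternatives were chosen with earlier results of these data known. Sequences and motif counts use the probe files and RefSeq (GRCm38.p6).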

Additional observations from a re-analysis of the deposited data

How the results depend on the processing

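By limma 0 of the 25 genes had an adjusted p under 0.05 in any of the 15 alternatives, where the smallest was 0.343, and the median difference stayed within its spread between arrays (SD 0.40). The count past the methods' threshold, 3, was 1 with quantile normalization, 1 with normexp, 0 after Benjamini-Hochberg adjustment of the t-test and 0 to 4 without 1 array. The count without overlap, 7, was 3 among probes above background on all 6 arrays, with fewer genes tested, and 7 to 10 without 1 array. Groups separate more easily with 1 array fewer, and no share over all genes is given, so these counts are description only. Of the further lists 6 genes passed the threshold, 12 with normexp, where probes at an unadjusted limma p under 0.05 numbered 3608 of 25160 in place of 1654, 3 among probes above background on all 6 arrays and 3 to 8 without 1 array. A replicate block left the median at −0.08 and 0 adjusted calls. Arrays of the same number did not deviate together (r 0.01, 0.02 and 0.09), so the numbers were not taken as pairs. The t-test and the overlap use no block.

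Of the 25 genes 11 kept their sign in every alternative: Hk1, Gpi1, Pgk1, Pgam2, Eno1, Eno3, Pdk1, Fbp2, Pck1, G6pc and Pdha1. For Hk1, Pgk1, Eno1, Fbp2 and Pck1 the groups do not overlap, so leaving out an array or blocking could not turn the sign. Quantile normalization turned Pfkp to 0.0067, Aldoa to 0.11 and Tpi1 to 0.13. Normexp turned Hk3 to 0.20, Pfkp to 0.27, Aldoa to 0.56, Aldoc to 0.29, Tpi1 to 0.59, Pgam1 to −0.46 and Fbp1 to −0.38. The deposited processed values turned Pfkp to 0.080, Aldoa to 0.038, Tpi1 to 0.098 and Pck2 to 0.089. The slide block turned Tpi1 to 0.89, Ldha to −0.36 and Pdhb to 0.25. The mean over a gene's probes turned Tpi1 to 0.83, Ldha to −0.39 and Pdk2 to −0.21. Without 1 array the differences ran from −0.88 to 0.21 for Hk3, −0.47 to 0.24 for Pfkm, −0.47 to 0.50 for Pfkp, −0.79 to 0.14 for Aldoc, −0.57 to 0.55 for Tpi1, −0.20 to 1.28 for Gapdh, −1.22 to 0.051 for Eno2, −0.20 to 1.50 for Ldha, −0.28 to 0.72 for Pdk2, −0.71 to 0.56 for Pck2 and −1.38 to 0.90 for Pdhb. The cause of each was not tested.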
